A study of Homo sapiens with 38 samples.

Results

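The 40 genes described here encode proteins that make or assemble ribosomes in the nucleolus, and they were followed together with MYC through all 9 conditions of an siRNA study of VPS4A and VPS4B. The rule names them by symbol and uses no measured value, but it was set with earlier results of these data known, and it was applied after the RefSeq identifiers of the deposited table had been mapped to gene symbols. All 40 were listed, each once, among 12627 genes. By role they fall into 4 genes of RNA polymerase I (Pol I) transcription, 5 of nucleolar RNA binding and scaffolding, 3 of the box C/D snoRNP, 3 of the box H/ACA snoRNP, 11 of small-subunit processing and 14 of large-subunit assembly.

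The cells were HCT116, a human colorectal carcinoma line, harvested 72 h after transfection, and total RNA was amplified with a targeted transcriptome panel and sequenced in 38 libraries. In all, 3 conditions served as controls, namely NT (non-transfected), siCTRL#1 (60 nM of a non-targeting duplex) and siCTRL#2, a further non-targeting duplex whose dose the labels do not give. Single silencing used siVPS4A#1, siVPS4A#2, siVPS4B#1 or siVPS4B#2 at 30 nM, each topped up with 30 nM of siCTRL#1. Combined silencing used 30 nM of each of 2 on-target duplexes and held no siCTRL#1, the condition siVPS4A+B#1 joining siVPS4A#2 with siVPS4B#1 and siVPS4A+B#2 joining siVPS4A#1 with siVPS4B#2. The amount of siCTRL#1 thus differed between controls, single and combined silencing, and its part in a difference from siCTRL#1 cannot be told apart from that of the on-target duplex. Each condition had 4 libraries except siCTRL#1 and siVPS4A#1, which had 5. All came from 1 cell line.

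VPS4A and VPS4B are paralogous ATPases that disassemble ESCRT-III filaments on membranes. Ribosome production starts in the nucleolus, where Pol I transcribes the rRNA precursor, snoRNPs modify it and assembly factors cleave, fold and package it into the small and large subunits. MYC is a transcription factor long known to raise the expression of Pol I factors, nucleolar proteins and ribosome assembly factors, which it does through binding sites called E-boxes.

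The library labelled siVPS4A#1 replicate 2 held 669257 reads and was left out of the fits unless stated, so siVPS4A#1 has 4 libraries. The other 37 held 5090666 to 11035293 reads (median 7561496), and every one of the 40 genes had at least 23 reads in each of them. In the conditions that targeted it, VPS4A lay at 1.63 to 33.9 TMM-scaled reads per 1000000 reads (RPM) per library, against 172 to 325 elsewhere, and VPS4B lay at 0.133 to 1.57 against 14.3 to 38.8. Of 8 colorectal epithelial markers 6 were listed, among them EPCAM and KRT8, while of 8 markers of other lineages only ACTA2 (mean 15.02 RPM) and PECAM1 (0.608) were. RPM is a share of each library's RNA, so that a change in a gene's RNA per cell and a change in the rest of the RNA cannot be told apart. Differences are log2 differences of RPM plus 1, tested in limma with a blocking term for replicate number, and a gene is called lower or higher at a Benjamini-Hochberg adjusted p under 0.05 over 12627 genes. Since the panel reads 1 amplicon per gene, levels are compared between conditions and never between genes.

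The level of MYC was highest in NT cells, at 730.1, 754, 494 and 707 RPM in replicates 1 to 4 (mean 671 ± 120, SD, n = 4). With siCTRL#1 it was 435, 339.9, 234, 447 and 314, and with siCTRL#2 it was 407, 495, 281 and 430.4. With siVPS4B#1 only 244, 194, 129.9 and 147 remained, and with siVPS4B#2 295, 218, 165 and 250.4. Every VPS4B-silenced library thus lay below every NT library, but siVPS4B#1 and siVPS4B#2 both overlapped siCTRL#1. Against NT, MYC fell by 1.93 on the log2 scale with siVPS4B#1 (adjusted p = 5.08e-13) and by 1.54 with siVPS4B#2 (adjusted p = 2.55e-10). Against siCTRL#1 it fell by 1.00 (adjusted p = 1.70e-06) and 0.61 (adjusted p = 0.00343), and it was lower in 4 of 4 pairs of the same replicate number with either duplex. Without the replicate block the difference of siVPS4B#2 from siCTRL#1 was -0.60 (adjusted p = 0.0566). These comparisons share their control libraries.

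With single silencing of VPS4A, MYC was not called different from siCTRL#1. The libraries held 376, 334, 277 and 338 RPM with siVPS4A#1, and 575, 414, 260.1 and 379.9 with siVPS4A#2. The log2 differences from siCTRL#1 were -0.05 (adjusted p = 0.828) and 0.17 (adjusted p = 0.934), while those from NT were -0.97 (adjusted p = 2.83e-06) and -0.76 (adjusted p = 0.000466). MYC was also lower than NT with the non-targeting duplexes, by 0.93 with siCTRL#1 (adjusted p = 1.39e-05) and by 0.74 with siCTRL#2 (adjusted p = 0.000157), so that a fall against NT was common to all 6 conditions with a control or single duplex.

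With combined silencing, MYC stood above its level with the VPS4B duplexes alone. The siVPS4A+B#1 libraries held 504, 326, 349 and 479 RPM, and the siVPS4A+B#2 libraries 683, 640.0, 492 and 568. With siVPS4A+B#2 all libraries lay above all siCTRL#1 libraries (log2 difference 0.76, adjusted p = 3.53e-05) and overlapped NT (-0.16, adjusted p = 0.387). With siVPS4A+B#1 MYC differed from NT by -0.70 (adjusted p = 0.000191) and from siCTRL#1 by 0.23 (adjusted p = 0.227). Compared with the VPS4B duplex it contained, each pair held more MYC, by 1.23 for siVPS4A+B#1 over siVPS4B#1 (adjusted p = 5.28e-08) and by 1.38 for siVPS4A+B#2 over siVPS4B#2 (adjusted p = 1.02e-09). In the order of its mean log2 levels MYC ran from NT through siVPS4A+B#2, siVPS4A+B#1, siCTRL#2, siVPS4A#2, siCTRL#1, siVPS4A#1 and siVPS4B#2 to siVPS4B#1. Among neighbours in this order that were tested, NT and siVPS4A+B#2 did not pass the threshold, nor did siVPS4A#2 and siCTRL#1, siCTRL#1 and siVPS4A#1 (both given above) or siVPS4B#2 and siVPS4B#1 (log2 difference -0.39, adjusted p = 0.0505), while the 2 combined conditions did (-0.54, adjusted p = 0.00515).

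The nucleolar genes shared the ends of that order. Over the 40 genes, the median log2 level relative to the mean of the 9 conditions was 0.32 in NT and -0.34 with siVPS4B#1. Taking each library's own median, NT libraries ran from 0.26 to 0.35, siCTRL#1 libraries from -0.16 to -0.02, siVPS4B#1 libraries from -0.43 to -0.26 and siVPS4B#2 libraries from -0.32 to -0.10. The siVPS4B#1 libraries therefore lay below every siCTRL#1 library, and the siVPS4B#2 libraries overlapped them. With siVPS4A+B#2 the medians ran from 0.14 to 0.30, above every siCTRL#1 library, and with siVPS4A+B#1 from -0.19 to 0.05. Of the 40 genes 19 had their highest mean in NT and 10 in siVPS4A+B#2, while 15 had their lowest mean with siVPS4B#1 and 9 with siVPS4B#2. The corresponding shares of all genes were 11.9%, 15.3%, 8.94% and 9.23%. The order in between differed: siCTRL#2 had the second highest nucleolar median (0.24, against 0.22 with siVPS4A+B#2), whereas MYC was 4th there (0.12). Of the 40 genes 7 had their highest mean with siCTRL#2, where 14.7% of all genes had theirs. With siVPS4A+B#1 MYC was 3rd (0.16) but the nucleolar median 7th (-0.06). With siVPS4A#1 MYC was 7th (-0.14) but the nucleolar median 4th (0.05). The medians of 22 cell cycle genes, plotted with them, were lowest with siVPS4A#1, a condition in which the nucleolar medians (-0.08 to 0.10) stayed above every siVPS4B#1 library.

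**Figure D1:**
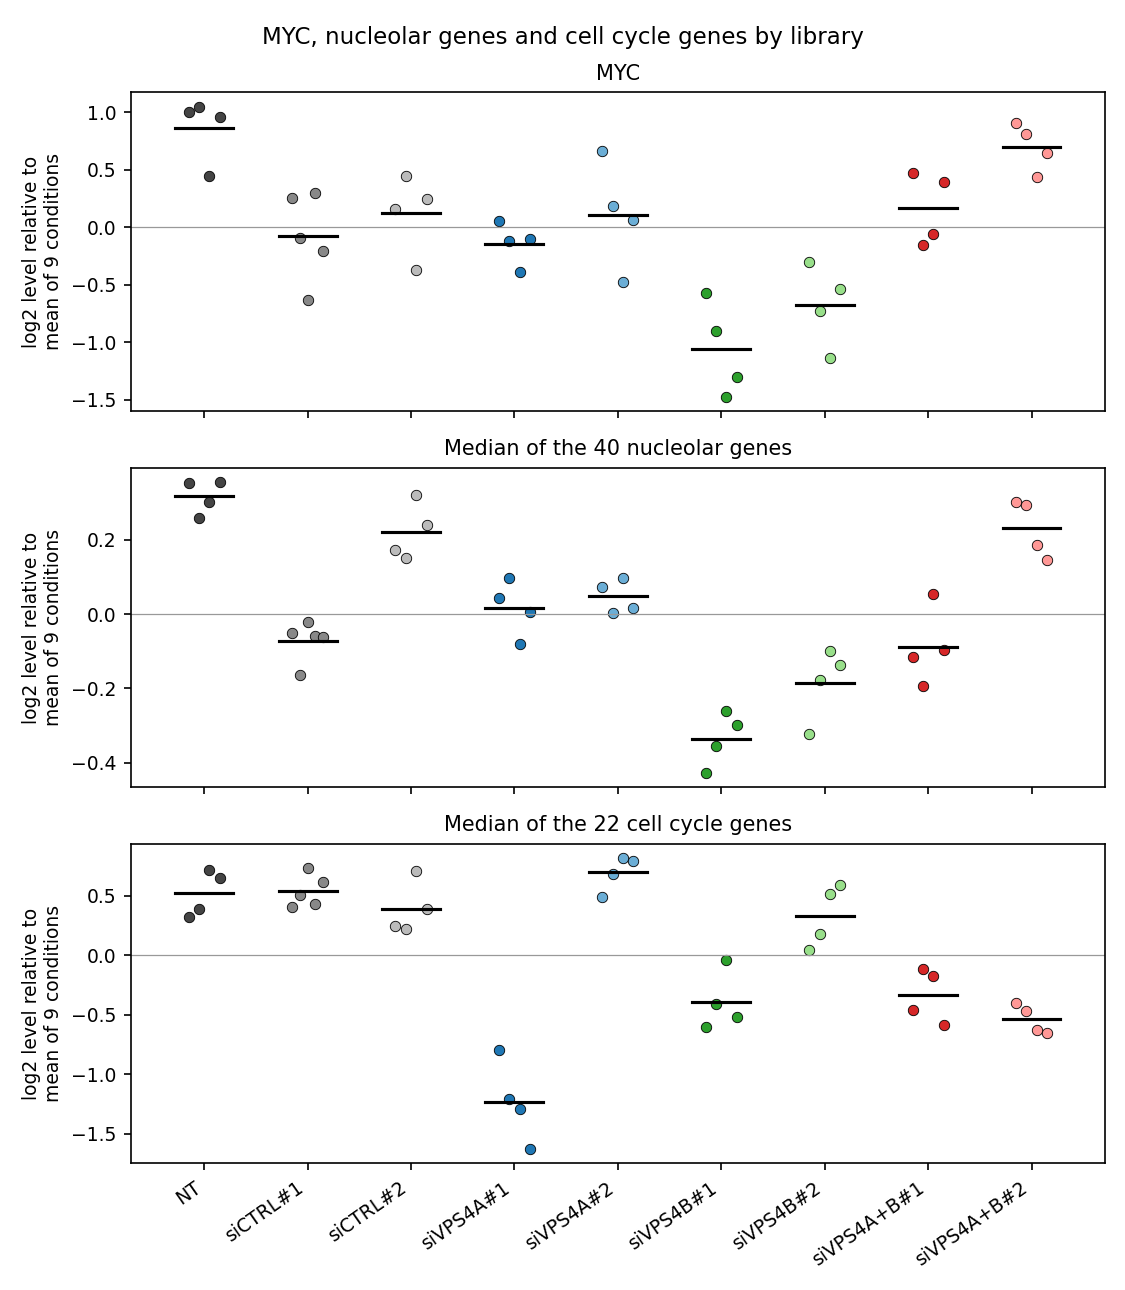
Log2 level of MYC (top), median of the 40 nucleolar genes (middle) and median of 22 cell cycle genes (bottom) in each of 37 libraries, relative to the mean of the 9 conditions, with 1 point per library and a bar at the mean of each condition. MYC and the nucleolar median are both lowest with siVPS4B#1 and high in NT and siVPS4A+B#2, whereas the cell cycle median is lowest with siVPS4A#1.

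Against NT, silencing of VPS4B went with lower levels of most of the nucleolar genes. With siVPS4B#1, 33 of 40 were lower and 0 higher, where 18.8% of all genes were lower and 17.7% higher. With siVPS4B#2, 26 were lower and 0 higher, against 13.4% and 12.9% of all genes. The median log2 difference over the 40 was -0.67 and -0.48, with the median of all genes at 0.00 in both (-0.00355 and 0.00197). Against siCTRL#1 the numbers were smaller. With siVPS4B#1, 12 were lower (11.7% of all genes) and 0 higher (10.4%), at a median of -0.23, and with siVPS4B#2, 3 were lower (7.77%) and 1, NPM1, was higher (6.49%), at a median of -0.10. All 12 genes lower than siCTRL#1 with siVPS4B#1 were also lower than NT, as were 8.6% of all genes, and for siVPS4B#2 the 3 genes stood against 4.57% of all genes. In all 4 comparisons of the 2 VPS4B duplexes, RRP9, BOP1 and GNL3 were called lower, where 1.39% of all genes were. By role, the genes lower with siVPS4B#1 than in NT were 3 of 4 in Pol I transcription, 5 of 5 scaffold proteins, 3 of 3 and 2 of 3 in the C/D and H/ACA particles, 7 of 11 in small-subunit processing and 13 of 14 in large-subunit assembly. Without replicate 1 the 12 genes became 7 (also 7 without replicate 4), the 26 became 14 and the 3 became 0, and those lower in all 4 comparisons were 0 without replicate 1 and 1 without replicate 2, 3 or 4. Without the replicate block, 0 genes were lower with siVPS4B#2 than both controls.

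With single silencing of VPS4A the difference depended on the reference. Against NT, 18 genes were lower with siVPS4A#1 (19.8% of all genes) and 15 with siVPS4A#2 (6.91%), with 0 higher in either case (17.8% and 7.48% of all genes). These became 11 without replicate 1 and 9 without replicate 3. Against siCTRL#1, 6 were lower (19.3%) and 6 higher (17.7%) with siVPS4A#1, the latter 3 without replicate 2 or 3, and without TMM factors the split was 6 and 10. With siVPS4A#2, 0 were lower and 0 higher (0.0475% and 0.0396% of all genes) in limma, DESeq2 and edgeR alike, and at an unadjusted p under 0.05 limma gave 0 lower and 1 higher. No nucleolar gene was lower in all 4 comparisons of the VPS4A duplexes, by any of the 3 tools or at an unadjusted limma p under 0.05 (0 genes), where 0.00792% of all genes were.

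Combined silencing gave a divided picture. Against NT, 23 genes were lower with siVPS4A+B#1 (20.9% of all genes) and 11 with siVPS4A+B#2 (24%), with 0 (19.5%) and 4 (21.2%) higher. Against both controls together, 3 were lower in each (12.6% and 16.9%), that of siVPS4A+B#1 being 1 without replicate 3 or 4 and 12 without TMM factors. Against siCTRL#1, 3 were lower (18.7%) and 5 higher (18.3%) with siVPS4A+B#1, the latter 2 without replicate 3. With siVPS4A+B#2, 4 were lower (23.6%) and 14 higher (21.6%), at a median log2 difference of 0.22. The 2 combined conditions also differed from each other, 16 genes being lower (13.7%) and 3 higher (15.7%) with siVPS4A+B#1 than with siVPS4A+B#2. In all 4 combined comparisons 0 nucleolar genes were lower and 0 higher in limma, DESeq2 and edgeR (7.14% and 7.19% of all genes in limma), and 1 was lower and 1 higher at an unadjusted limma p under 0.05. The scale mattered here: without TMM factors the median of all genes moved by -0.17 in siVPS4A+B#1 against siCTRL#1 and the nucleolar split became 13 lower and 2 higher, while for siVPS4A+B#2 it moved by -0.13 and the split was 5 lower and 12 higher.

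The non-targeting duplexes also differed from NT and from each other. With siCTRL#1, 19 of the 40 genes were lower than in NT and 0 higher, where 8.09% and 9.01% of all genes were, and the median log2 difference was -0.41. With siCTRL#2, 6 were lower (15.2%) and 0 higher (12.1%) than in NT, at a median of -0.09. Directly compared, 17 genes were higher (13.1%) and 3 lower (15.9%) with siCTRL#2 than with siCTRL#1, the 17 being 10 without replicate 3. MYC differed by 0.18 between the 2 non-targeting duplexes (adjusted p = 0.371).

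**Figure D2:**
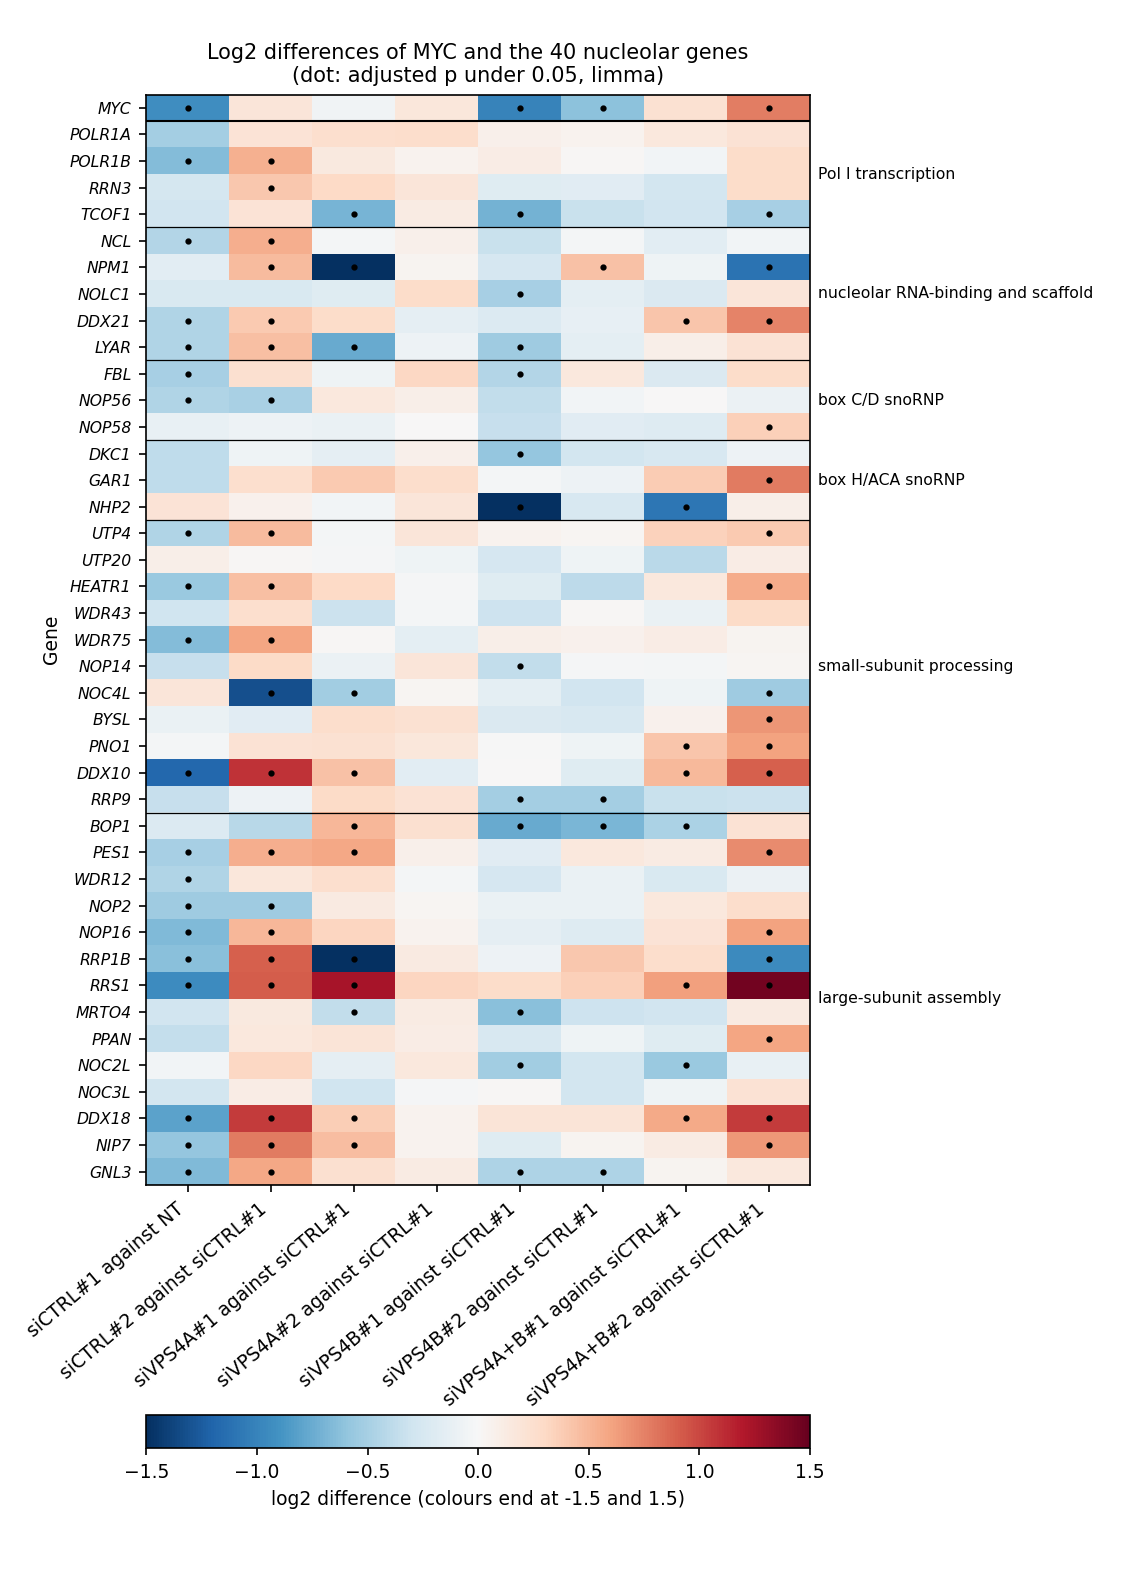
Log2 difference of MYC and each of the 40 nucleolar genes (rows, in blocks by role) in 8 comparisons (columns), blue for lower and red for higher, with colours ending at -1.5 and 1.5 and a dot where the limma adjusted p is under 0.05. The column for siCTRL#1 against NT is mostly blue (19 dots among the nucleolar genes, all lower). That for siVPS4A#2 against siCTRL#1 has 0 dots. Strong blue cells include NPM1 and RRP1B with siVPS4A#1 and NHP2 with siVPS4B#1. Others are NPM1 with siVPS4A+B#2 and NHP2 with siVPS4A+B#1. Between controls they include NOC4L with siCTRL#2 (-1.32) and DDX10 with siCTRL#1 against NT (-1.18).

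Of the Pol I genes, TCOF1, which encodes the rDNA transcription factor treacle, moved most. It lies on the plus strand at chr5:149737192-149779871 of GRCh37. In siCTRL#1 libraries it read 65.0, 53.2, 75.0, 66.6 and 62.4 RPM, and in NT libraries 60.1, 86.4, 97.2 and 82.7. It was 47.7, 38.5, 38.5 and 32.1 with siVPS4A#1, and 38.1, 43.6, 43.98 and 34.3 with siVPS4B#1. Both sets lay below every siCTRL#1 and NT library, with log2 differences from siCTRL#1 of -0.70 (SE 0.14, adjusted p = 5.94e-05) and -0.71 (SE 0.14, adjusted p = 0.000152). In siVPS4A+B#2 libraries the level was 40.6, 49.5, 48.2 and 47.4, also below all siCTRL#1 libraries (-0.50, adjusted p = 0.00305). With the other duplexes TCOF1 read 64.3, 76.96, 73.5 and 72.0 (siVPS4A#2) and 51.2, 43.3, 71.8 and 46.4 (siVPS4B#2), and neither was called against siCTRL#1. The difference between siVPS4A#1 and siVPS4A#2 was itself called (-0.82, adjusted p = 2.61e-05). POLR1A, the largest Pol I subunit, was called in none of the 12 comparisons of silenced cells with NT or siCTRL#1, whereas its partner subunit POLR1B was lower than NT in all 6 silenced conditions (-0.69 to -0.37) and in siCTRL#1 (-0.65), and in none of the 6 against siCTRL#1. RRN3, the initiation factor that recruits Pol I, was lower than NT with both VPS4B duplexes (-0.44 and -0.43) and siVPS4A+B#1 (-0.54).

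Among the nucleolar RNA-binding and scaffold proteins, NPM1 had the largest difference of all 40 genes from siCTRL#1, in siVPS4A#1. NPM1 encodes nucleophosmin, an abundant scaffold of the granular nucleolar zone, at chr5:170814120-170838814, plus strand, GRCh37, and it has many processed pseudogenes, with which its amplicon may share reads. The siVPS4A#1 libraries held 434, 492, 431 and 399 RPM, where siCTRL#1 held 1356, 1617, 1604, 1377 and 1583. With siVPS4A#2 they held 1414, 1617, 1828 and 1396. The siVPS4A#1 level was 29.2% of that in siCTRL#1 (log2 difference -1.78, SE 0.12, adjusted p = 2.34e-14) and 28.4% of that in siVPS4A#2 (-1.82, adjusted p = 1.73e-13), with no overlap in either case. In siVPS4A+B#2, which contains siVPS4A#1, NPM1 read 722, 769, 795 and 552, below every siCTRL#1 library (-1.10, adjusted p = 3.26e-09), and in siVPS4A+B#1, which does not, it read 1269, 1197, 1701 and 1660.2 (-0.07). MYC did not share this pattern, since it was 0.05 lower with siVPS4A#1 and 0.76 higher with siVPS4A+B#2 than with siCTRL#1.

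The other 4 scaffold genes had smaller differences. DDX21, an RNA helicase that associates with Pol I and snoRNAs, was higher than siCTRL#1 in both combined conditions (0.41 and 0.75, the latter with an adjusted p = 2.47e-06), and with siVPS4A+B#2 also higher than NT (0.30). LYAR, a zinc-finger protein of the nucleolus, was lower with siVPS4A#1 (-0.75) and siVPS4B#1 (-0.54) than with siCTRL#1. NOLC1, a snoRNP chaperone, was lower with siVPS4B#1 (-0.50), and NCL, nucleolin, had no called difference from siCTRL#1 with any on-target duplex (-0.33 to 0.07) but was 0.55 higher with siCTRL#2. The siVPS4B#1 libraries of NOLC1 (409 to 581 RPM) overlapped those of siCTRL#1 (484 to 897).

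In the box C/D snoRNP, which methylates rRNA, NOP56 was lower than NT in several transfected conditions. NOP56, a core protein at chr20:2633239-2639039, plus strand, GRCh37, read 214, 194, 153 and 185 RPM in NT. With siCTRL#1 it read 129, 132, 132, 147 and 123. With siCTRL#2 it read 108, 80.4, 122 and 81.3, and with siVPS4B#1 83.7, 118, 111 and 112. All siCTRL#1, siCTRL#2 and siVPS4B#1 libraries lay below all NT libraries, and the largest of these differences was that of siCTRL#2 (-0.93, SE 0.16, adjusted p = 2.36e-05). The difference of siCTRL#1 from NT (-0.45, adjusted p = 0.0475) was lost without replicate 1, 2, 4 or 5. This call was also lost without the replicate block (adjusted p = 0.0556) and without TMM factors (0.104). The same held with DESeq2 size factors (0.0529) and with the library siVPS4A#1 replicate 2 included (0.0734). Against siCTRL#1, siVPS4B#1 left 77.7% of the NOP56 level (adjusted p = 0.0988). FBL, the methyltransferase of this particle, was lower than siCTRL#1 with siVPS4B#1 (-0.44), and NOP58 was higher with siVPS4A+B#2 (0.36). The siVPS4B#1 libraries of FBL (169 to 219 RPM) overlapped those of siCTRL#1 (168 to 293).

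In the box H/ACA snoRNP, which converts uridine to pseudouridine, NHP2 was low where siVPS4B#1 was present. NHP2, a core protein at chr5:177576464-177580895, minus strand, GRCh37, read 24.6, 20.6, 20.1 and 13.3 RPM with siVPS4B#1, against 58.4, 42.8, 66.4, 56.0 and 39.5 with siCTRL#1. With siVPS4B#2 it read 46.2, 58.6, 39.97 and 46.1. The level with siVPS4B#1 was 35.5% of that with siCTRL#1 (log2 difference -1.49, SE 0.15, adjusted p = 9.36e-10) and 41.9% of that with siVPS4B#2 (-1.26, adjusted p = 5.48e-08), and the libraries overlapped in neither comparison. The siVPS4A+B#1 libraries, which contain siVPS4B#1, held 33.5, 24.2, 24.6 and 22.6, below every siCTRL#1 library (-1.08, adjusted p = 2.55e-07), while siVPS4A+B#2 held 62.6, 63.2, 62.9 and 50.3 (0.09). DKC1, the pseudouridine synthase itself, was also lower than siCTRL#1 with siVPS4B#1 (-0.58), and GAR1 was higher with siVPS4A+B#2 (0.77).

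**Figure D3:**
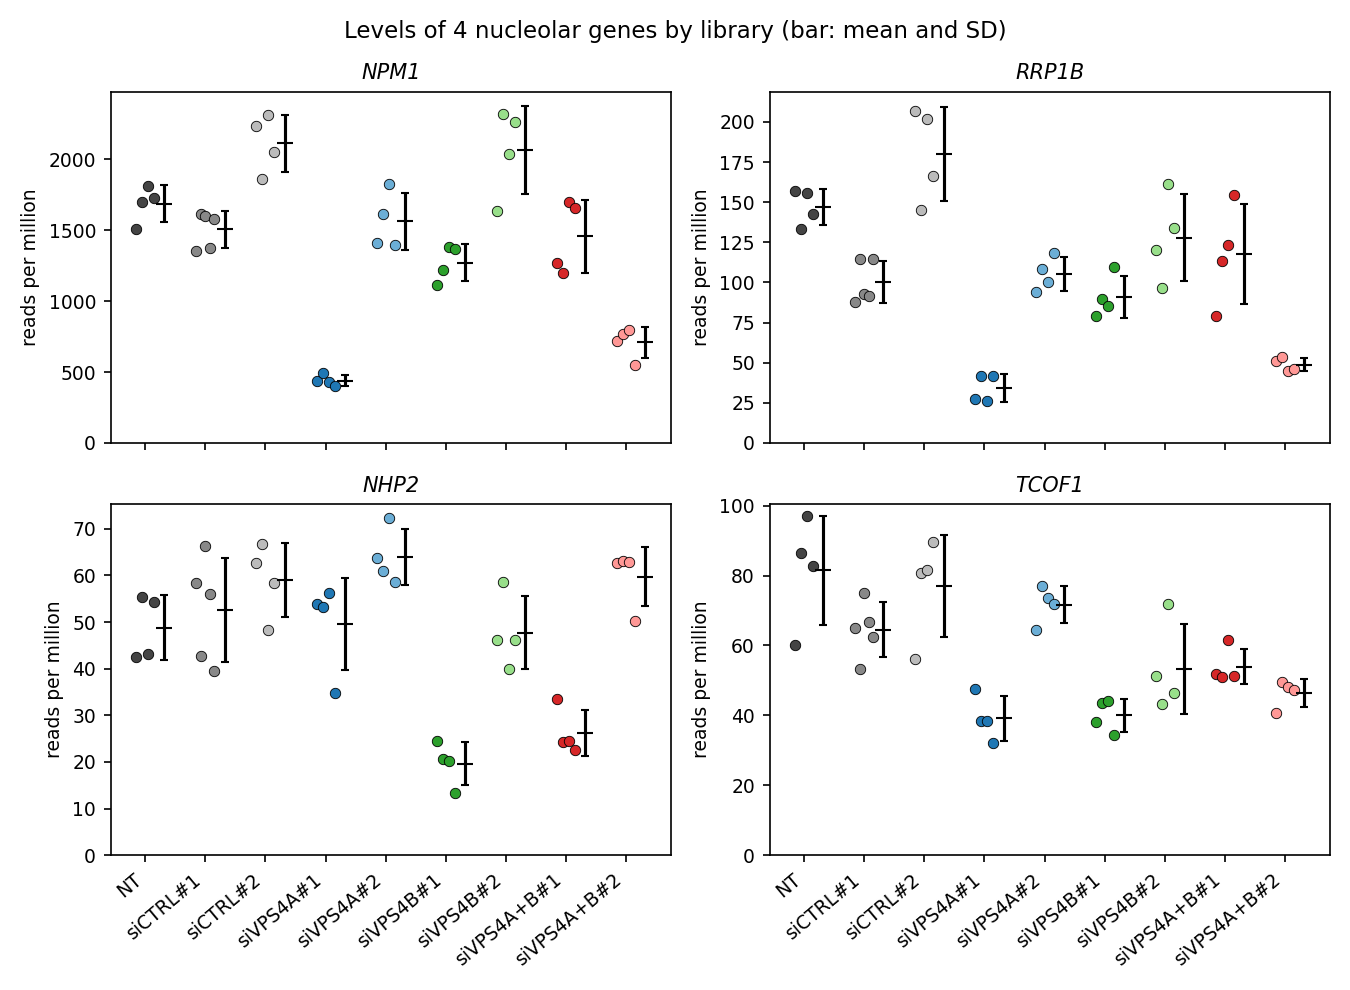
RPM of NPM1, RRP1B, NHP2 and TCOF1 in each library of the 9 conditions (points) with the mean and SD of each condition beside them, on axes that start at 0. NPM1 and RRP1B are low in siVPS4A#1 and siVPS4A+B#2, NHP2 is low in siVPS4B#1 and siVPS4A+B#1, and TCOF1 lies below every siCTRL#1 library with siVPS4A#1, siVPS4B#1 and siVPS4A+B#2.

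Of the 11 genes of small-subunit processing, RRP9 had the largest fall over the 4 combined comparisons. It encodes a protein of the U3 snoRNP, the particle that starts cleavage of the rRNA precursor, and lies at chr3:51967445-51975920, minus strand, GRCh37. It read 69.8, 73.4, 58.9 and 94.4 RPM in NT, and 53.9, 61.0, 65.9, 50.7 and 53.2 with siCTRL#1. With siVPS4B#1 it read 43.3, 52.3, 36.9 and 30.9, and with siVPS4B#2 35.5, 40.6, 39.7 and 45.0. The siVPS4B#2 libraries lay below every siCTRL#1 library and the siVPS4B#1 libraries overlapped them, the log2 differences from siCTRL#1 being -0.51 for both (adjusted p = 0.0275 for siVPS4B#1 and 0.0394 for siVPS4B#2). Both calls were lost when replicate 1 or 3 was left out (adjusted p = 0.0554 and 0.152 for siVPS4B#1, 0.16 and 0.161 for siVPS4B#2), the former also without replicate 4 (0.0699) and the latter also without replicate 2 or 5 (0.107 and 0.0522). Against NT they were -0.85 for both (adjusted p = 0.000174 and 0.000309). In the combined conditions RRP9 held 61.1, 56.4, 37.3 and 32.4 (siVPS4A+B#1) and 53.0, 41.8, 33.6 and 58.9 (siVPS4A+B#2), which overlapped both controls and was called only against NT (-0.68 and -0.66). Without replicate 4 the former was -0.40 (adjusted p = 0.0603). Without the replicate block the calls of the VPS4B duplexes against siCTRL#1 were lost as well (adjusted p = 0.0554 and 0.0795).

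PNO1, an RNA-binding factor of late small-subunit maturation, was higher, by value, in all 4 combined comparisons (0.38 to 0.60), whereas the mean difference over those 4 had a median of -0.06 over its role. The median of the role was itself below 0 against NT (-0.38 and -0.07) and above 0 against siCTRL#1 (0.07 and 0.29). It lies at chr2:68385020-68403370, plus strand, GRCh37. It read 76.6, 91.4, 101 and 68.2 RPM with siVPS4A+B#2, against 54.0, 49.9, 60.8, 53.7 and 53.1 with siCTRL#1 and 76.5, 45.4, 46.9 and 58.9 in NT. The siVPS4A+B#2 libraries lay above all siCTRL#1 libraries (log2 difference 0.60, adjusted p = 0.00236) and overlapped NT (0.57, adjusted p = 0.00469), the latter call being lost without replicate 2 or 3 (adjusted p = 0.0876 and 0.11). With siVPS4A+B#1 PNO1 read 53.2, 66.0, 80.7 and 99.9, which overlapped both controls (0.41 against siCTRL#1, adjusted p = 0.0421, and 0.38 against NT, adjusted p = 0.0624). The former call was lost without TMM factors (0.24, adjusted p = 0.241) and without replicate 2, 3 or 4 (adjusted p = 0.0985, 0.0855 and 0.31).

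The remaining genes of this role included 1 that was low with a control duplex. NOC4L, a nucleolar partner of NOP14 that was singled out after its values were seen, read 50.5, 42.9, 48.5 and 35.6 RPM with siCTRL#2, against 108, 94.2, 96.2 and 93.4 in NT. Its level with siCTRL#2 was 45.6% of NT (adjusted p = 3.01e-07) and 40.02% of siCTRL#1 (adjusted p = 6.35e-09), with no overlap. The reverse held for DDX10, an RNA helicase, again noted after its values were seen: it read 178, 123, 122 and 127 in NT but 70.9, 49.9, 49.1, 72.7 and 56.9 with siCTRL#1 (log2 difference -1.18, adjusted p = 1.18e-06), and it was 1.08 higher with siCTRL#2 than with siCTRL#1 (adjusted p = 1.02e-06). UTP20, a scaffold of the early small-subunit precursor, was called in none of the 12 comparisons of silenced cells with either control (-0.40 to 0.20).

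Large-subunit assembly held the largest group. RRP1B, an early assembly factor at chr21:45079441-45115960, plus strand, GRCh37, was low with siVPS4A#1, as NPM1 was. It read 27.3, 42.0, 26.4 and 41.8 RPM with siVPS4A#1, against 88.1, 114, 93.0, 91.5 and 115 with siCTRL#1 and 93.8, 109, 100.2 and 118 with siVPS4A#2. The siVPS4A#1 level was 33.7% of siCTRL#1 (log2 difference -1.57, SE 0.15, adjusted p = 4.18e-11) and 30.6% of siVPS4A#2 (-1.71, adjusted p = 6.00e-11), and neither comparison showed overlap. With siVPS4A+B#2 it read 50.8, 53.6, 44.7 and 45.9, again below every siCTRL#1 library (-0.95, adjusted p = 2.51e-06), and with siVPS4A+B#1 79.2, 113, 124 and 155 (0.26). Its level in the controls was uneven too, at 157, 133, 155 and 143 in NT and 207, 145, 202 and 166 with siCTRL#2, so that siCTRL#1 was lower than both (-0.62 against NT, adjusted p = 0.00393).

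RRS1 helps to bring the 5S particle into the large subunit and was named here after its values were seen. Against siCTRL#1 it moved the other way. It read 167, 214, 168 and 189.7 RPM with siVPS4A+B#2 and 140.0, 177, 141 and 156 with siVPS4A#1, against 81.5, 49.4, 68.6, 79.6 and 51.8 with siCTRL#1, so that neither set overlapped siCTRL#1 (log2 differences 1.45, adjusted p = 4.44e-11, and 1.23, adjusted p = 1.58e-09). In NT RRS1 read 131, 133, 143 and 112, above every siCTRL#1 library. The siVPS4A+B#2 libraries lay above all NT libraries, whereas those of siVPS4A#1 overlapped them. With siVPS4A#1, 0 of the 40 genes were called higher than NT. Of the PeBoW complex, which processes large-subunit rRNA, BOP1 was lower than siCTRL#1 with both VPS4B duplexes (-0.75, adjusted p = 0.00231, and -0.68, adjusted p = 0.0106) and with siVPS4A+B#1 (-0.48), and PES1 and WDR12 were not called in these comparisons (-0.25 to 0.16). BOP1 nevertheless varied widely within siCTRL#1, at 117, 48.8, 92.5, 104 and 51.9. Its low values were those of replicates 2 and 5. In these, siCTRL#1 was also lowest for NOLC1 (484 and 530), FBL (168 and 189), BYSL (33.2 and 42.0) and NOC4L (77.8 and 87.7). NCL was highest in them (432 and 453). GNL3, nucleostemin, was lower than siCTRL#1 with both VPS4B duplexes (-0.46 for each, adjusted p = 0.0177 and 0.0292) and lower than NT in all 6 silenced conditions (-1.12 to -0.42) and with siCTRL#1 (-0.66).

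Whether a pair of duplexes differed from the sum of its single effects was tested by subtracting both single differences, on the log2 scale, from that of the pair. The siCTRL#1 amounts cancel only if the effect of siCTRL#1 is proportional to its amount on that scale, which was not tested. Against NT, siCTRL#1 by itself went with a MYC difference of -0.93 and a nucleolar median of -0.41. For siVPS4A+B#1, MYC exceeded the sum by 1.06 (SE 0.21, adjusted p = 0.000736), and of the 40 genes 1, DDX21, exceeded it (0.74, adjusted p = 0.00469) and 0 fell short, where 3.9% and 2.44% of all genes did. For siVPS4A+B#2, MYC exceeded the sum by 1.42 (SE 0.21, adjusted p = 2.23e-06), and 8 of the 40 exceeded it and 0 fell short, against 10.4% and 9.27% of all genes. LYAR had the largest excess (1.12, adjusted p = 0.000321), followed by MRTO4 (0.82) and NOC3L (0.79), and BYSL, DDX10, DDX21, NOP58 and TCOF1 followed at 0.53 to 0.64. The median over the 40 was 0.15 and 0.35. In siVPS4A+B#2, 16 of the 22 cell cycle genes also exceeded the sum. An excess can be a smaller fall than the sum and need not be a rise. The median differences of the cell cycle genes from siCTRL#1 were -1.92 with siVPS4A#1, -0.28 with siVPS4B#2 and -1.14 with siVPS4A+B#2. TCOF1, too, was lower with siVPS4A+B#2 than with siCTRL#1. The 8 genes became 3 without replicate 1, 4 without replicate 5, 4 without the replicate block and 3 without TMM factors, and the 1 gene became 0 without replicate 4.

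Over the 9 condition means, the Pearson correlation of the 40 genes with MYC had a median of 0.68. It was above 0.5 for 34 of them (85%), as it was for 9.55% of the other 12586 genes. Without NT the median over 8 conditions was 0.61, and 26 genes (65%) were above 0.5, against 11.5% of the others. NOP16, HEATR1 and MRTO4 stood highest, at 0.86, 0.85 and 0.85, and NPM1 (-0.10), NOC4L (-0.14) and RRP1B (0.01) lowest. The points share libraries, duplexes and depth, and are given as a description with no test.

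The promoters were read for the E-box with the letters CACGTG, a motif that MYC is known to bind, and whether it has a part in these levels was not tested. Of the 40 genes 33 had an entry in the RefSeq table of start sites (GRCh38.p14), and the 300 bases from 250 before to 50 after a start were searched for it. The motif is its own reverse complement, so that both strands read alike. It occurred in 16 of the 33 genes (48.5%), in 12.4% of 10173 other listed genes and in 8.73% of all 27272 other genes of the table. Within 40 bases of the start, a distance chosen after the positions were seen, it occurred in 15 (45.5%), against 3.97% and 2.62%. A match is a description of the letters and not a site of binding. Of the 26 genes with an entry that were lower with siVPS4B#1 than in NT, 11 held it (42.3%), and of the other 7, 5 did (71.4%). Shown are the 4 genes with the motif and the largest mean fall over the combined comparisons, from 100 bases before to 30 after the start (the start being base 1), 5′ to 3′ on the gene's strand, with the E-box in capitals. The mean log2 difference was -0.50 for RRP9 (-0.68 to -0.32). It was smaller, with values on both sides of 0, for GNL3 (-0.23, from -0.62 to 0.16), FBL (-0.22, from -0.72 to 0.27) and MRTO4 (-0.22, from -0.58 to 0.14). RRP9 lies at chr3:51941875-51942004 (minus), GNL3 at chr3:52685932-52686061 (plus), FBL at chr19:39846350-39846479 (minus) and MRTO4 at chr1:19251705-19251834 (plus). The E-box starts at base -5 in RRP9, at base 7 in GNL3 and FBL and at base 15 in MRTO4.
RRP9: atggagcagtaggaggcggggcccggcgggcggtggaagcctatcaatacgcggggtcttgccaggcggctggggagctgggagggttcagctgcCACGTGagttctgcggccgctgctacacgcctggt
GNL3: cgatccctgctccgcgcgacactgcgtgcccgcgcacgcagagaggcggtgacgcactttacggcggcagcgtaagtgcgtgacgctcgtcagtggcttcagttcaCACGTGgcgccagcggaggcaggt
FBL: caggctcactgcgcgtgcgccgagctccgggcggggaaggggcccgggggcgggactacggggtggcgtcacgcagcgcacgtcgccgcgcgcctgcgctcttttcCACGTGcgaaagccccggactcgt
MRTO4: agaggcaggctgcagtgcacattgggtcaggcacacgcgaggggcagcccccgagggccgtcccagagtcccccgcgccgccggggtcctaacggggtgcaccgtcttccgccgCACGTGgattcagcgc

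Lists of related genes were read in the same fits, with the share of all genes in brackets after a count. Of 103 other ribosome biogenesis factors, 31 were lower (8.09%) and 0 higher (9.01%) with siCTRL#1 than in NT. With siVPS4B#1, 54 were lower (18.8%) and 3 higher (17.7%) than in NT, and 17 lower (11.7%) and 3 higher (10.4%) than with siCTRL#1. With siVPS4A+B#2, 7 were lower (23.6%) and 36 higher (21.6%) than with siCTRL#1. Called in all 4 combined comparisons were 6, led by RRP12, an export factor (mean log2 difference 1.19), SBDS, which frees the large subunit for translation (1.03), and TTF1, the Pol I termination factor (-0.97). Of 76 cytosolic ribosomal protein genes, 34 were lower (8.09%) and 0 higher (9.01%) with siCTRL#1 than in NT. Against siCTRL#1, 32 were higher (13.1%) and 2 lower (15.9%) with siCTRL#2, and 2 were lower (11.7%) and 0 higher (10.4%) with siVPS4B#1. Of 42 MYC targets outside the nucleolus, 12 were lower (11.7%) and 1 higher (10.4%) with siVPS4B#1 than with siCTRL#1, and 13 lower (19.3%) and 2 higher (17.7%) with siVPS4A#1, where MYC was not called. With siVPS4B#2, 4 were lower (7.77%) and 1 higher (6.49%). In this list 6 were called in all 4 combined comparisons, among them FASN, the fatty acid synthase (1.42), TFAM, a mitochondrial transcription factor (-1.15), and SHMT1, of folate metabolism (-1.09). Of all genes 7.14% were lower and 7.19% higher in all 4 combined comparisons, so that the 6 of 103 and the 6 of 42 did not exceed the share of all genes.

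The cell cycle genes were read in the same way. Of 22, all 22 were lower and 0 higher with siVPS4A#1 (19.3% of all genes lower) and with siVPS4B#1 (11.7%) than with siCTRL#1. With siVPS4A+B#1 20 were lower (18.7%) and with siVPS4A+B#2 21 (23.6%), while with siVPS4B#2 only 2 were (7.77%). Their median differences were -1.92 with siVPS4A#1 and -1.14 with siVPS4A+B#2, where the nucleolar medians were 0.14 and 0.22. With siVPS4B#1 both were below 0, at -1.02 for the cell cycle genes and -0.23 for the nucleolar genes, and with siVPS4B#2 few of either were called (medians -0.28 and -0.10). In all 4 combined comparisons 18 were lower (7.14% of all genes), with MKI67 (-1.66), PLK1 (-1.42) and MCM3 (-1.24) leading. The part of cell cycle state in the nucleolar levels was not tested.

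**Figure D4:**
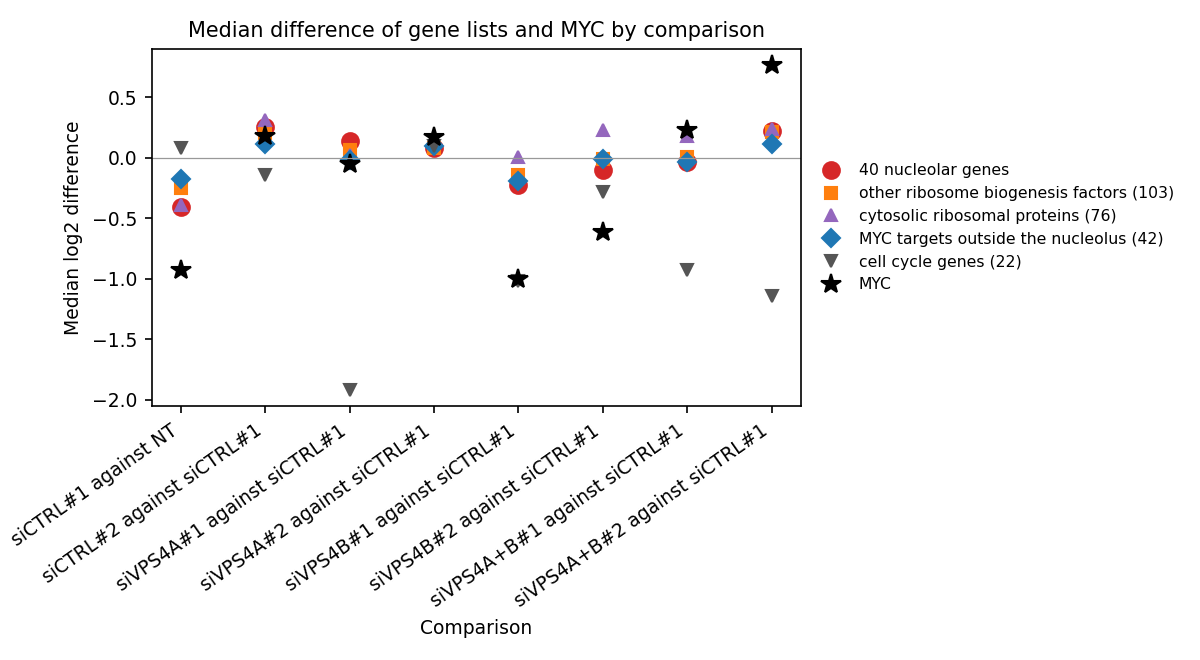
Median log2 difference of the 40 nucleolar genes (circles), of 4 comparison lists (number of measured genes in brackets) and of MYC (stars) in 8 comparisons. Nucleolar genes, other ribosome biogenesis factors and ribosomal protein genes lie below 0 for siCTRL#1 against NT and above 0 for siCTRL#2 and siVPS4A+B#2 against siCTRL#1, while the cell cycle genes fall furthest with siVPS4A#1.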

How the data were processed

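RNA of 38 HCT116 libraries was read with an Ion AmpliSeq transcriptome panel. Per the study's methods and the submitters' processing notes, the authors aligned reads to an hg19 panel reference, counted them with HTSeq 0.6.0 and tested them with DESeq2 1.18.1. The values the authors deposited are a signal, each gene's share of its library's listed reads. Whole reads were recovered from the smallest step in each library (100% of the low values came out whole, and 100% of the 50.4% of values that can be placed within 0.1 read). Recovered totals set the reads per 1000000 reads (RPM) (highest floor of 3 reads, 0.589 RPM). Symbols were matched for 12474 of 12627 identifiers.

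RPM values were TMM-scaled (factors 0.881 to 1.10) and tested on log2(value + 1) with limma 3.58.1 in R 4.3.3, over 37 libraries, with condition and replicate number as terms. The number is the labelled batch, and libraries of the same number deviated together (mean r 0.185 over 137 pairs against -0.082 over 529, across genes), clearly so for replicates 1 and 3 (0.289 and 0.327) and little for 2 and 4 (0.081 and 0.016). The labels do not state whether replicates were separate cultures, while figure legends of the paper call the sequenced samples independent experiments or biological replicates. The p-values measure the spread between these libraries. The alternatives were edgeR 4.0.16 and DESeq2 1.42.0 on recovered reads, other scalings, pseudocount and filters, and leaving out each replicate. Named genes were, per role, that with the largest mean difference over the 4 comparisons of combined silencing and any going against its role's median, and per list the 3 largest among those called in all 4. The members and lists were chosen with earlier results of these data known. The limma fit was tested on reads simulated without a replicate effect, for siVPS4A+B#1 against siCTRL#1 only. The other steps were not tested in this way.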

Additional observations from a re-analysis of the deposited data

Results flagged for a closer look

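MYC and the members named by rule (8 genes, 72 groups of libraries) were examined, and the other genes given by library were not. In 3 groups a single library stood apart from the rest of its condition. This does not exceed the share that chance gives, about 1 group in 20. TCOF1 read 61.4 RPM in siVPS4A+B#1 replicate 3, against 51.1 to 51.9 in the other libraries. NHP2 read 34.8 in siVPS4A#1 replicate 5, against 53.2 to 56.3, and 50.3 in siVPS4A+B#2 replicate 4, against 62.6 to 63.2.

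The effect of a duplex differed with the presence of the other by the interaction term of the limma fit, in which the part of the unequal siCTRL#1 amounts was not tested. An excess can be a smaller fall than the sum, as for TCOF1. For siVPS4A+B#1 the excess over the sum of single effects, on the log2 scale, was 1.06 for MYC and 0.74 for DDX21. For siVPS4A+B#2 it was 1.42 for MYC, 1.12 for LYAR, 0.82 for MRTO4, 0.79 for NOC3L, 0.64 for BYSL and for DDX10, 0.62 for NOP58, 0.60 for DDX21 and 0.53 for TCOF1.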

How the results depend on the processing

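Of the counts and MYC differences, 397 recomputed values kept their direction and their side of the threshold, or stayed within 1.5 times the reported count, 58 counts moved by more, 3 values reversed and 1 lost its call. MYC with siVPS4A#1 against siCTRL#1 turned to 0.035 with the low-depth library (siVPS4A#1 replicate 2) included, and ranged up to 0.14 when a replicate was left out (0.0018 without replicate 1), with no call in any case. Without the replicate block, MYC with siVPS4B#2 against siCTRL#1 was -0.60 (adjusted p = 0.0566), genes lower with siVPS4B#2 than both controls were 0, those lower in all 4 VPS4B comparisons 0 and those beyond the sum for siVPS4A+B#2 4. Without TMM factors, genes lower than both controls were 12 with siVPS4A+B#1 and 5 with siVPS4A+B#2, those lower in all 4 combined comparisons 2, those beyond the sum for siVPS4A+B#2 3, those lower than NT with siVPS4A#1 10, and those higher than siCTRL#1 10 with siVPS4A#1 and 2 with siVPS4A+B#1. With the low-depth library, genes lower than siCTRL#1 or than both controls with siVPS4B#1 were 6, with siVPS4B#2 0, in all 4 VPS4B comparisons 0, beyond the second sum 5 and higher with siVPS4A+B#1 3. Fitting the compared conditions only gave 4 beyond the second sum, 3 higher with siVPS4A#1 than siCTRL#1 and 15 lower with siVPS4A+B#1 than NT. DESeq2 and edgeR gave 2 beyond the first sum, and DESeq2 10 higher with siVPS4A#1. At a fold of 1.5, genes lower than both controls were 4 (siVPS4B#1), 1 (siVPS4B#2) and 1 (siVPS4A+B#1), lower in all 4 VPS4B comparisons 1, lower than NT 8 (siCTRL#1), 8 (siVPS4A#1), 6 (siVPS4A#2), 15 (siVPS4B#2), 11 (siVPS4A+B#1) and 5 (siVPS4A+B#2), lower than siCTRL#1 with siVPS4B#1 4, and higher than siCTRL#1 1 (siVPS4A#1), 1 (siVPS4A+B#1) and 6 (siCTRL#2).

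Leaving out 1 replicate at a time, genes lower than both controls ranged from 7 to 10 with siVPS4B#1, 0 to 3 with siVPS4B#2 and 1 to 3 with siVPS4A+B#1, those lower in all 4 VPS4B comparisons from 0 to 2, those beyond the sums from 0 to 1 and 3 to 7, those lower than NT from 11 to 17 with siVPS4A#1, 9 to 15 with siVPS4A#2 and 14 to 25 with siVPS4B#2, those lower than siCTRL#1 with siVPS4B#1 from 7 to 10, and those higher than siCTRL#1 from 3 to 6 with siVPS4A#1, 2 to 5 with siVPS4A+B#1 and 10 to 16 with siCTRL#2. The MYC difference of siVPS4A#1 from siCTRL#1 ranged from -0.23 to 0.14. The causes were not tested. Among single genes, 58 of the recomputed calls were lost, for NOP56, NPM1, PNO1, RRP1B and RRP9.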
